A study of Mus musculus with 9 samples.

Results

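In macrophages that lack TET2, 1109 genomic regions carried a call for 5-hydroxymethylcytosine (5hmC) that was made in the knockout and not in the wild type. They were taken from a list of 9151 5hmC peaks, of which 9093 lie on chromosomes 1 to 19 and X. Numbers in the peak names run well beyond the peaks listed, so the list and its classes hold only part of the calls. A peak belongs to the set if its name in the deposited files comes from the call on the merged knockout libraries and not also from the call on the merged wild-type libraries. On the same chromosomes 942 peaks carry both names and 7042 the wild-type name alone. The peaks were thus selected on the authors' calls, which rest on the same reads as the counts. This selection favours higher counts in knockout and cannot be told apart from an effect of genotype. Higher counts in knockout are therefore not read as a result. They are described with no test.

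The study compared RNA and 5hmC between mouse macrophages labelled Tet2 knockout and wild type, all treated with M-CSF, a growth factor needed for macrophages to form and survive, at passage 0. DNA fragments that carry 5hmC were enriched through biotin and sequenced in 2 knockout and 2 wild-type libraries, and ribosomal-RNA-depleted RNA was sequenced in 2 knockout and 3 wild-type libraries. The labels give neither the Tet2 allele nor the animals' age, sex or number, nor whether replicates are separate animals or cultures. A p-value here therefore measures the spread between libraries, which may be technical. RNA of Tet2 was present in both genotypes, at 232 and 126 CPM (counts per 1000000 in genes) in knockout and 86.2, 144 and 41.6 CPM in wild type, so a count over the whole gene does not separate them. A gene on the sequence that the files name KI separated them, with 1452 and 2245 RNA counts in knockout and 0 in each of the 3 wild-type libraries.

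5hmC is made when TET enzymes oxidise 5-methylcytosine at CpG dinucleotides, and it marks cytosines on the way to demethylation as well as stable positions in gene bodies and enhancers. TET2 is the most studied family member in blood cells, and TET1 and TET3 carry out the same reaction. Macrophages grown in M-CSF are the precursors of osteoclasts, the bone-resorbing cells that express acid phosphatase and cathepsin K.

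Of the 1073 members that were compared with gene starts, 8 touched a promoter window, defined as the 250 bases before to 50 bases after a gene start in the RefSeq table of GRCm38.p6. The upstream bases that lie inside a peak are shown for the 4 windows with over 100 such bases, because they are the letters that a knockout-only call covers, written 5′ to 3′ on the gene's strand with CpG dinucleotides, the usual substrate of TET enzymes, in capitals.

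Ralgapa1 (chr12:55821517-55821725): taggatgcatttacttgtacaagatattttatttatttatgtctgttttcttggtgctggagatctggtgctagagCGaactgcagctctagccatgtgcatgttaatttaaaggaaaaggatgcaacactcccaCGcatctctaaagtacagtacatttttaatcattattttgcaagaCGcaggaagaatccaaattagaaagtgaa
Naif1 (chr2:32450207-32450356): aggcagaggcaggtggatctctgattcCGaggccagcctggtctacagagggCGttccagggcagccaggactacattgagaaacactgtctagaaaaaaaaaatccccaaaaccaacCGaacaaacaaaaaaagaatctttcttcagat
Gm40011 (chr2:173082530-173082643): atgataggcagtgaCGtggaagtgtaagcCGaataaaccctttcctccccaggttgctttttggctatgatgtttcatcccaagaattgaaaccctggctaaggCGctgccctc
Gm41598 (chr17:50790747-50790848): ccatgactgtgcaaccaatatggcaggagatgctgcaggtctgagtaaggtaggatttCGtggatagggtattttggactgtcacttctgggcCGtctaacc

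The 4 stretches hold 3, 3, 3 and 2 CpG dinucleotides, and the whole windows hold 5, 5, 6 and 3, against a median of 7 over all 32851 windows of the table. The RUNX core motif TGTGGT, searched on both strands (ACCACA on the other), was in 5506 of those windows (16.8%) and in none of the 8, which says only that these letters are not there. Overlap of these stretches with repeats was not examined. All 4 peaks were shallow. The Ralgapa1 peak, at a gene for a subunit of the complex that restrains Ral GTPases, had 10 and 3 counts in knockout, with 2 and 7 in wild type. The Naif1 peak, before a gene for a nuclear apoptosis-inducing factor and in the body of Slc25a25, had 6 and 2 counts in knockout. In wild type it had 0 and 4. The peaks at the predicted genes Gm40011 and Gm41598 had 3 and 5, and 6 and 4, counts in knockout. The other 4 windows belong to Vim, Cst3, Ampd3 and Gm33723, and the Vim and Cst3 peaks touch only bases after the gene start.

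The 5hmC libraries held 46230 and 42489 counts in all listed peaks for knockout replicates 1 and 2, and 42678 and 219116 for wild-type replicates 1 and 2. Levels are given as counts per 100000 of these totals. The knockout-only peaks took 18.8% and 18.7% of the knockout counts, as against 5.35% and 4.98% of the wild-type counts. A typical member was shallow, with a median of 6 and 6 counts in knockout and 2 and 9 in wild type. An exact Poisson interval, which covers counting error only, runs from 2.20 to 13.1 for a count of 6 and from 0.242 to 7.22 for a count of 2. In wild-type replicate 1, 267 members had no count, where 3 counts are worth 7.03 per 100000, so a level below that is not detectable there. In the deeper wild-type replicate 2 only 39 were at 0, and 36 were at 0 in both.

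The median level was 13.0 and 14.1 for knockout, 4.69 and 4.11 for wild type, and the median log2 ratio of knockout to wild type was 1.60 with 1 per 100000 added to each mean level. Both knockout libraries lay above both wild-type libraries at 1018 of the 1109 peaks (91.8%), against 18.3% of all listed peaks. As the calls used these counts, nothing is read from that share. Peaks of both genotypes had medians of 17.3 and 16.5 in knockout and 14.1 and 13.7 in wild type, so in knockout the members were below the shared peaks. The members' median of 4.69 in wild-type replicate 1 is under what 3 counts are worth there and is no measured level for a single peak.

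**Figure D1:**
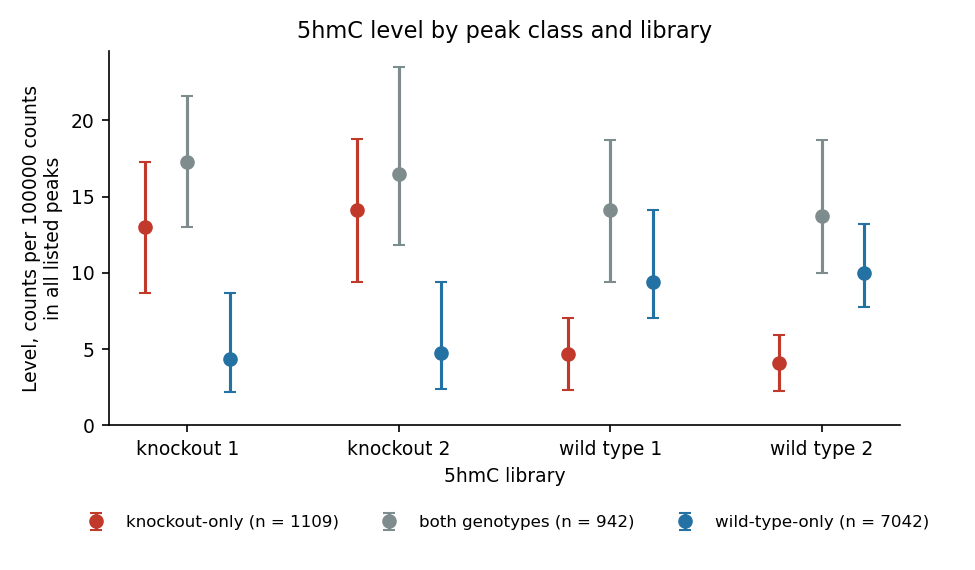
Median 5hmC level (points) and interquartile range over peaks (bars), in counts per 100000 counts in all listed peaks, for 3 classes of peak in each of 4 libraries. Knockout-only peaks have medians of 13.0 and 14.1 in knockout and 4.69 and 4.11 in wild type. The class was set by calls made on these reads.

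These values depend on what the counts are scaled to. Per 100000 counts in the peaks of both genotypes, the median log2 ratio was 0.91 and 669 peaks kept both knockout above both wild-type libraries. Per 100000 counts on unplaced contigs and mitochondrial DNA, whose share also differed between genotypes, it was -0.71 and 142 did.

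The call rule left some peaks near its edge. The members with the highest wild-type level lay at chr9:3002113-3002580 (122 and 109 counts in knockout, 45 and 77 in wild type), chr2:98664980-98665196 (132, 123, 40 and 83) and chr17:39847342-39848239 (119, 101, 20 and 121). Just outside the set were 3 peaks of both genotypes with the lowest wild-type share. They lay at chr9:24541893-24542300 (49 and 48 counts in knockout, 3 and 18 in wild type), chr12:3109845-3110272 (63, 60, 6 and 30) and chr12:74803742-74804640 (81, 93, 8 and 55). At all 6 the knockout level was above the wild-type level, so the calls do not split the list at one fold difference.

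The 2 knockout libraries differed by less than sampling noise at these peaks. Over the 764 members with at least 10 summed knockout counts the chi-square per degree of freedom was 0.692, where pure counting gives 1, and over 2544 listed peaks it was 0.574. The wild-type libraries gave 1.11 over 621 members, 1.20 over 8647 listed peaks and 3.09 over 942 peaks of both genotypes, so there they differed by more than counting. Ratios therefore use the mean level of the pair as 1 sample, and a statement that both knockout libraries exceed the wild type carries the weight of 1 sample. With the pair summed, 1078 of the 1109 members lay above both wild-type libraries. The agreement of the pair is no measure of variation between mice.

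Against that agreement, 4 members differed at least 10-fold between the knockout libraries, each with 1 count in replicate 1 and at least 10 in replicate 2, a criterion chosen after the values were seen. All 4 lie in genes of connective tissue or of the actin cytoskeleton, near the end of the gene where its strand was known. The peak in Bgn, which encodes the matrix proteoglycan biglycan, had 1 and 27 counts in knockout and 0 and 1 in wild type. The peak in Col1a2, a chain of type I collagen, had 1, 17, 0 and 0 counts in the same order, and lay at 97.8% of the gene body counted from its start. The peak in Tpm1, a tropomyosin, had 1, 14, 0 and 1, and that in Mgp, the matrix Gla protein, 1, 10, 0 and 0. In each gene 1 library of the 4 holds nearly all the signal.

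RNA of 3 of these genes was found almost wholly in 1 RNA library, wild-type replicate 3. Bgn RNA was 0 and 0.0392 CPM in knockout and 0, 0.0779 and 155 CPM in wild-type replicates 1 to 3. Col1a2 RNA was 0.187, 0.157, 0.398 and 0.565 CPM in the first 4 libraries and 2373 CPM in wild-type replicate 3, and Mgp was at 0 except for 21.2 CPM there. Tpm1 RNA was abundant in every library, at 155 and 136 CPM in knockout and 61.8, 113 and 416 CPM in wild type. Wild-type replicate 3, which has no 5hmC library, stood apart over the 14 stromal and osteoblast markers, of which Col1a2 is one. They summed to 6207 CPM there against 7.57 to 19.4 in the others. More stromal cells and more stromal RNA per cell cannot be told apart in such bulk libraries. Over the 14 members in genes whose RNA was at least 10 times higher in that library than in any other, the peaks held 65 and 122 counts in knockout and 22 and 70 in wild type. Without Bgn, Col1a2 and Mgp the other 11 held 62 and 68 in knockout, so those 3 peaks carry the gap. Wild-type-only peaks in such genes held 116 and 132. Among the 11 was a peak in Tenm3, a teneurin of the nervous system and mesenchyme, with 1, 5, 0 and 0. The role of other cells in these 5hmC counts was not tested. The macrophage markers summed to between 15598 and 21505 CPM in every RNA library, and no macrophage marker was at 0. That sum hides single markers that differed in both directions. Adgre1 was 7243 and 5904 CPM in knockout and 1321, 3085 and 805 CPM in wild type. Mertk was 49.4 and 37.7 CPM in knockout and 222, 85.1 and 112 CPM in wild type.

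**Figure D2:**
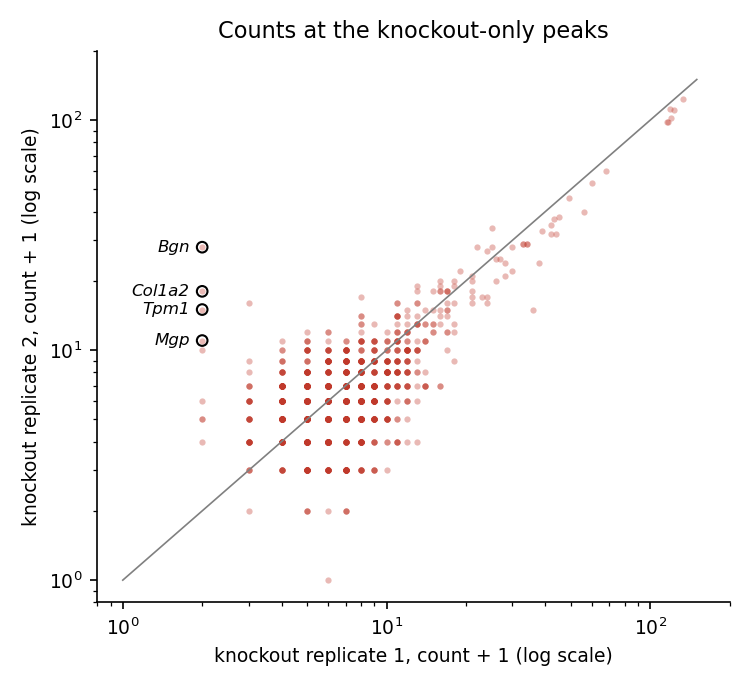
Counts plus 1 of the 1109 knockout-only peaks in knockout replicate 1 (x) and replicate 2 (y), both on log scales, with the line of equal counts in grey. Circled are the peaks in Bgn, Col1a2, Tpm1 and Mgp, with 1 count in replicate 1 and 27, 17, 14 and 10 in replicate 2.

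Knockout-only peaks were narrow. Their median width was 282 bases (interquartile range 247 to 337) against 428 for peaks of both genotypes and 372 for wild-type-only peaks. Width went with depth (Spearman rho 0.583 with the summed knockout count over 635 members in genes with RNA), and both come from the same reads. The widest were at chr4:3089959-3091117 (1158 bases), chr3:8245646-8246697 (1051 bases), both outside genes, and at the end of Lcp1, the gene of the leukocyte actin bundler L-plastin (916 bases).

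In most respects their place in the genome was that of the other classes. A gene body held 778 of 1109 (70.2%, exact 95% interval 67.4% to 72.8%), against 71.7% and 69.9% for peaks of both genotypes and wild-type-only peaks, and 684 (61.7%) lay in a protein-coding gene. A gene start was closer. Of the 1073 members for which that distance was taken, 154 (14.4%) had their centre within 2 kb of a start, against 8.48% and 6.79%, and the median distance was 11068 bases against 12303 and 21188. These intervals take peaks as independent, which neighbours are not. Touching the promoter window itself was rare in this set (8 peaks, 0.746%, interval 0.322% to 1.46%) and in the others (1.32% and 1.19%).

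By chromosome, the share of listed peaks that were knockout-only was 12.2% over all and ranged from 7.55% on chromosome 1 (49 of 649) to 22.1% on the X (15 of 68). Chromosome 9 had the highest share of an autosome, 15%. Most members stood alone: 844 had no other member within 100 kb and 265 (23.9%) did, against 22.6% of peaks of both genotypes, a class of similar size. A wild-type-called peak, of which there are many more, lay within 100 kb of 824 members (74.3%) and within 1 kb of 33 (2.98%).

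The largest chain of members, each within 100 kb of the next, held 8 peaks at chr3:88380151-88534519 and ran through Mex3a, an RNA-binding protein gene, and Lmna. It held 109 and 98 counts in knockout and 16 and 65 in wild type. Lmna, the gene of the nuclear lamins A and C, had 4 of these peaks, and its highest, at chr3:88502691-88503201, had 33 and 28 counts in knockout and 3 and 8 in wild type. The other 3 Lmna peaks lay in the last part of the gene, at 86.9%, 95.4% and 97.7% of its body. In every Lmna peak both knockout levels were above both wild-type levels, which the selection favours. The same held at 91.8% of all members and 18.3% of all listed peaks.

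A chain of 5 peaks ran through Pcbp2, which encodes a poly(C)-binding regulator of RNA stability, and Map3k12, a neuronal stress kinase gene. Pcbp2 held 4 of them with 57 and 51 counts in knockout and 2 and 20 in wild type. Its peak at chr15:102490482-102490908 had 25, 19, 0 and 1 counts, almost none of them in wild type. A chain of 4 on chromosome 2 joined Trdmt1, a tRNA methyltransferase gene of the DNMT family, to 3 peaks in Vim, the gene of the intermediate filament vimentin. The Vim peaks held 59 and 68 counts in knockout, with 22 and 29 in wild type, and lay at 3.92%, 68.3% and 96.9% of the gene. Other chains of 4 lay in the long non-coding RNA gene 2700054A10Rik (85, 82, 5 and 30 counts) and across Plekha2, Tacc1 and the metalloproteinase gene Adam9 (24, 24, 8 and 27). The first 4 of these loci were strong in knockout, and the last was a run of shallow peaks. Of all 775 host genes, 729 held 1 member, 46 held 2 or more and 6 held 3 or more, the last being Lmna, Pcbp2, 2700054A10Rik, Vim, Snx24 and Rsf1.

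Counts were unevenly spread. The 10 highest members held 10.7% of the 16624 knockout counts in the set and the 100 highest 30.4%. Of those 10, 9 lay outside protein-coding genes. The highest was the peak at chr2:98664980-98665196 described above, 45303 bases from the nearest gene start and 889 bases from a wild-type-called peak. The 6 members of the chain at chr9:3001248-3032714 are all among the 10, and together held 526 and 460 counts in knockout and 116 and 311 in wild type. The start of an assembled mouse chromosome borders the centromere and its satellite repeats. Within 3.5 Mb of a chromosome start lay 16 members with 7.71% of the set's knockout counts, and also 16 peaks of both genotypes with 13.2% of theirs. Another of the 10 overlapped Rn18s-rs5 and AY036118, sequences related to ribosomal RNA, and the peak at chr15:75085385-75086022 had 115 and 97 counts in knockout and 6 and 33 in wild type. The sources used here do not say how reads from repeated sequence were placed, so counts at these peaks are uncertain.

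Among the 10 highest only 1 was in a protein-coding gene. It lay in Ctsb, the gene of the lysosomal protease cathepsin B, with 59 and 52 counts in knockout and 11 and 13 in wild type (levels 128, 122, 25.8 and 5.93). Next among coding genes came E030030I06Rik (42, 36, 2 and 23) and Tmsb4x, the gene of the actin-sequestering thymosin beta 4 (41, 34, 9 and 10). RNA of Ctsb and Tmsb4x ranked at percentiles 99.8 and 99.9 of coding genes on the scale explained next, and that of E030030I06Rik at 14.

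The strong members in coding genes sat mostly in short, highly transcribed genes. RNA of a host gene is given as mean CPM over the 5 libraries per kb of gene body, introns included, and ranked among 11890 protein-coding genes. It was not used to choose the peaks. Of the 31 members in ranked genes with 30 or more summed knockout counts, the median host stood at percentile 99.5 and had a body of 11.9 kb. The 174 members with under 10 counts had a median percentile of 34.2 and a median body of 77.5 kb. Hosts above percentile 99 held 29 of 635 members (4.57%), 4 of 551 peaks of both genotypes (0.726%) and 4 of 3975 wild-type-only peaks (0.101%). All of these hosts have bodies under 30 kb, where the shares were 15%, 2.78% and 0.576%, and no peak of any class in a longer host was above percentile 99. The scale favours short genes. Ranked by CPM alone, without the length, hosts above percentile 99 held 6.61%, 2.54% and 1.51% of the 3 classes, the same order with smaller differences. Across members the summed knockout count went with host RNA (Spearman rho 0.407, n = 635), more than in peaks of both genotypes (0.237, n = 551) or wild-type-only peaks (0.213, n = 3975). Knockout counts of wild-type-only peaks are low, with a median of 2 in each library. With the summed wild-type count, rho was 0.109 in members, 0.0818 in peaks of both genotypes and 0.125 in wild-type-only peaks. Peaks that share a gene share its RNA value, and these coefficients are descriptions.

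**Figure D3:**
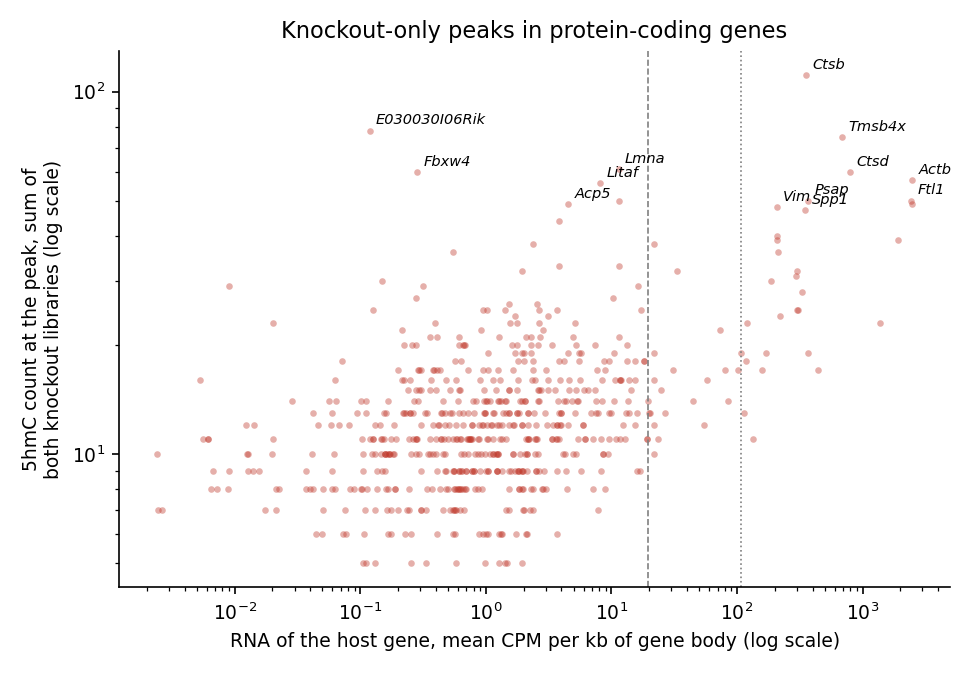
Summed knockout count of each of the 635 knockout-only peaks in ranked protein-coding genes (y, log scale) against RNA of the host gene in mean CPM per kb of gene body (x, log scale). The dashed and dotted lines mark percentiles 95 and 99 of all ranked genes, and the strongest peaks, such as those in Ctsb, Tmsb4x and Ctsd, lie to the right of them, while E030030I06Rik and Fbxw4 lie far to the left.

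The hosts of strong members are given here by what their proteins do, with the examples picked after their values were seen. Among lysosomal proteins, besides Ctsb, were Ctsd (cathepsin D; 32, 28, 11 and 12 counts) and Psap, the saposin precursor (26, 24, 8 and 12). Ftl1, the ferritin light chain that stores iron, had 27, 23, 3 and 10 counts, and Gpnmb, a lysosomal membrane glycoprotein, 16, 15, 2 and 7. At all 5 of these peaks knockout exceeded wild type, as the selection favours, by 4.32-fold (Ctsd) to 9.71-fold (Ftl1) in mean level.

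Among proteins of the actin cytoskeleton, Actb, the gene of beta-actin, held 2 peaks 306 bases apart with 49 and 57 counts in knockout and 16 and 78 in wild type. Cfl1, the gene of the actin-severing cofilin, had 25, 32, 7 and 14 counts over 2 peaks, and Lcp1 23, 15, 5 and 8 in 1. The wild-type levels were 37.5 and 35.6 at Actb and 16.4 and 6.39 at Cfl1.

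Housekeeping genes included Eef1a1, the translation elongation factor (20, 19, 4 and 16 counts), Aldoa, the glycolytic aldolase (17, 19, 4 and 19), and Rplp0, a ribosomal protein (16, 14, 4 and 12). Spp1, the gene of the secreted matrix protein osteopontin, had 27, 20, 5 and 9. Litaf, a regulator of endosomal trafficking, had 29, 27, 5 and 14 counts with host RNA at percentile 88.0. All 27 genes drawn in the plot of named genes had both knockout levels above both wild-type levels at their highest peak, as the selection favours.

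**Figure D4:**
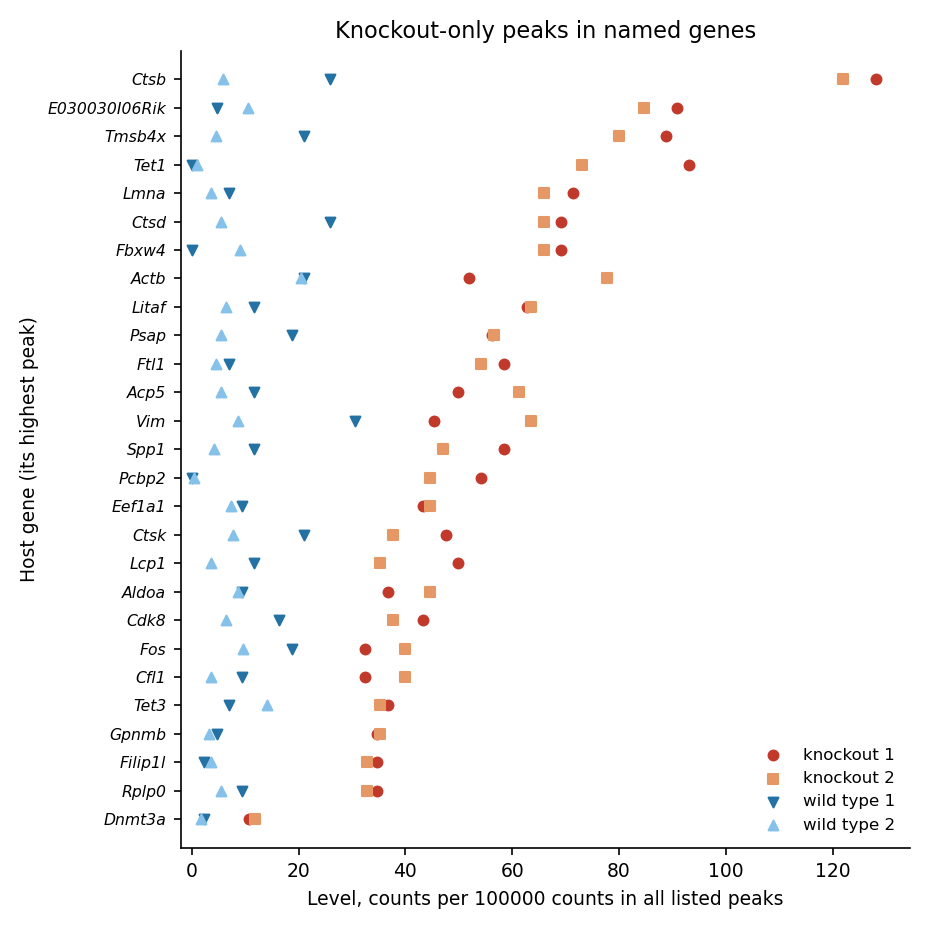
5hmC level at the highest knockout-only peak of 27 genes (those with 30 or more summed knockout counts and those of the TET and DNA methylation list), in counts per 100000 counts in all listed peaks, with 1 marker for each of the 4 libraries. Wild-type replicate 1 lies to the right of replicate 2 at Ctsb, Ctsd and Tmsb4x.

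Within highly transcribed hosts the peaks lay toward the end of the gene. In hosts above percentile 95 whose strand was known, 21 of 42 members (50%) had their centre in the last 20% of the body and 3 (7.14%) in the first 20%. Wild-type-only peaks in such hosts had 4 of 55 (7.27%) in the last 20% and 14 (25.5%) in the first 20%. Peaks of both genotypes there were few, with 3 of 10 (30%) in the last 20% and 4 (40%) in the first 20%. Tmsb4x (96.6%), Ctsd (96.0%), Psap (97.4%), Spp1 (92.2%), Gpnmb (92.0%), Ftl1 (90.2%) and Cfl1 (89.0%) are examples, with the place in the body in brackets. Over all hosts the order was the opposite, with 157 of 505 members (31.1%) in the first 20% and 84 (16.6%) in the last 20%. The gene table used gives no exons, so exon and intron cannot be told apart.

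**Figure D5:**
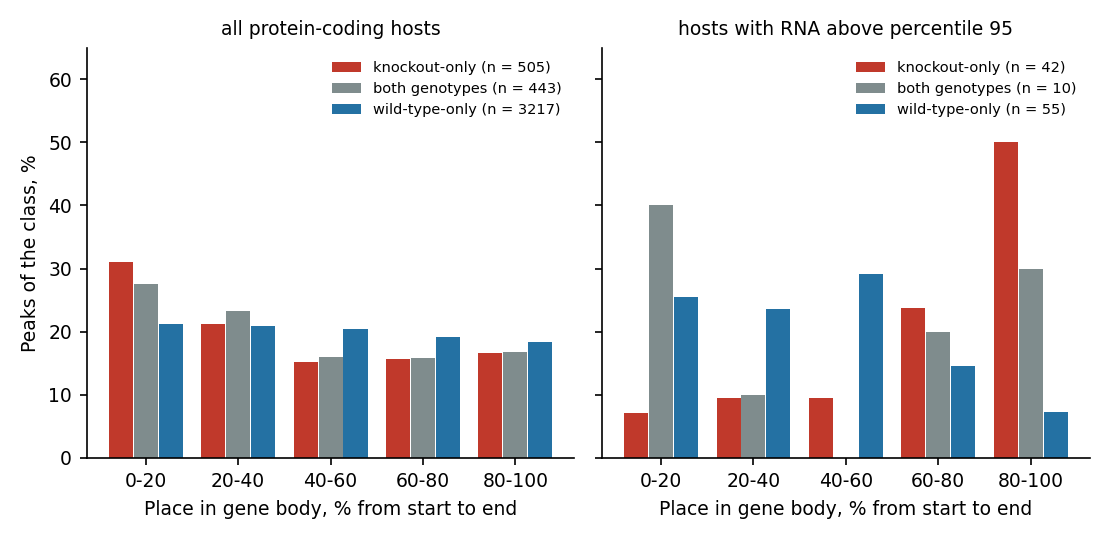
Share of the peaks of each class (bars, from 0) in steps of 20% of the gene body, counted from the gene start, for all protein-coding hosts of known strand (left) and for hosts with RNA above percentile 95 (right). In the right panel 50% of the 42 knockout-only peaks are in the last 20%, against 7.27% of 55 wild-type-only peaks. The 10 peaks of both genotypes are few, with 30% in the last 20%.

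The wild-type libraries also differed at these hosts. At all 29 members in hosts above percentile 99 the level was higher in wild-type replicate 1 than in replicate 2, with summed levels of 333 and 161, and at 269 of 586 members in hosts up to percentile 95 it was. Ctsb (25.8 against 5.93), Ctsd (25.8 against 5.48), Tmsb4x (21.1 against 4.56) and Vim (51.5 against 13.2 over 3 peaks) are examples. The knockout levels there summed to 1172 and 1209.7. Both wild-type libraries were below both knockout libraries at each of the 29, which the selection favours. The gap between the wild-type replicates was not particular to members in these hosts. Members within 3.5 Mb of a chromosome start summed to 323 and 185 in wild-type replicates 1 and 2. In hosts above percentile 99, peaks of both genotypes summed to 180.4 and 72.1, and wild-type-only peaks to 56.2 and 59.3. Without peaks near chromosome starts and in hosts above percentile 95, 1044 members remained, with a 3.44-fold ratio of summed levels against 3.63-fold over all. The selection on these counts favours a ratio above 1 in any part of the set, and both ratios depend on the scaling. Nothing about the source of the signal is read from them.

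Strong members were not limited to abundant transcripts. Tet1, which encodes a TET enzyme, held a peak at chr10:62812496-62813387 with 43 and 31 counts in knockout and 0 and 2 in wild type, at 89.9% of its body. Its RNA was 0.249 and 0 CPM in knockout and 0.171, 0.175 and 0.426 CPM in wild type, too low to pass the filter for the test. Its knockout levels of 93.0 and 73.0 were in the range of Tmsb4x, and its wild-type levels, 0 and 0.913, were far lower than there. Tet3, the other paralog, held a peak at 3.20% of its body, 12416 bases from the nearest gene start, with 17, 15, 3 and 31 counts. Dnmt3a, which encodes a de novo DNA methyltransferase, held a shallow one with 5, 5, 1 and 4. Fbxw4, an F-box protein gene, had 32, 28, 0 and 20 counts, and Cdk8, a kinase gene of the mediator complex, 20, 16, 7 and 14. Filip1l, a gene for a filamin-interacting protein, had 16, 14, 1 and 8, and the pseudogene Gm12186 had 31, 18, 0 and 1 over 2 peaks. A pseudogene resembles its parent gene, so the placement of these reads is uncertain.

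Of 19 genes of the osteoclast list, 4 held a member. Acp5, the gene of tartrate-resistant acid phosphatase, had 23 and 26 counts in knockout and 5 and 12 in wild type at 96.8% of its body. Ctsk, the gene of cathepsin K, had 22, 16, 9 and 17 at 96.3%. Fos, a transcription factor subunit required for osteoclasts, had 15, 17, 8 and 21, and Mitf, a regulator of lysosomal and osteoclast genes, 6, 6, 0 and 11. Ctsk, Acp5 and Fos were among the stronger members, and Mitf had about the median count. The osteoclast genes had 1 peak of both genotypes and 11 wild-type-only peaks.

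Other lists held fewer. Of 20 macrophage identity genes, Cd68, a lysosomal glycoprotein gene, had 17, 11, 3 and 13 counts and the integrin gene Itgam 6, 3, 3 and 11. At Itgam, knockout replicate 2 (level 7.06) and wild-type replicate 1 (7.03) were almost equal. Of 21 genes of the TET and DNA methylation list, the 3 named above held one, and no gene of RUNX1 and its partners did (0 of 7, with 2 peaks of both genotypes and 8 wild-type-only peaks). Ddx58, the gene of the RNA sensor RIG-I, was the 1 of 20 interferon-stimulated genes, and Il18, an inflammatory cytokine gene, the 1 of 21 inflammatory genes. The lists were chosen with results of these data known, and with 1 to 4 members each they show no more than where these peaks lie.

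RNA is the measure that the choice of peaks did not use. Of the 775 host genes, 703 matched a gene of the RNA table and 616 passed the filter on low counts. No host gene passed an adjusted p of 0.05 in edgeR's quasi-likelihood test, against 0.0135% of all genes tested (2 of 14851), and the smallest adjusted p among hosts was 0.138. With unadjusted p-values below 0.05, 47 hosts (7.63%) were higher in knockout, against 5.95% of all genes, and 76 (12.3%) were lower, against 7.86%. Hosts of peaks of both genotypes gave 6.90% and 11.2%, and hosts of wild-type-only peaks 7.11% and 10.8%. The median log2 difference was -0.07 in hosts and -0.03 over all genes. The shares of the 3 classes of host lay close to each other, and the classes share genes. DESeq2 called 69 of the 616 hosts (11.2%) and 1211 of all genes (8.15%), where limma-voom called 0 hosts and 1 gene. With the replicate block 6.33% of hosts and 6.40% of all genes were higher, and without wild-type replicate 3 these were 6.92% and 7.69%, so the larger share of higher hosts did not hold there, while lower hosts stayed above all genes (12.5% against 7.77%, and 15.3% against 9.96%).

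Summed levels of some markers of other cells lay apart between the genotypes in these RNA libraries, with no test. The 6 dendritic cell markers summed to 22.2 and 12.2 CPM in knockout and 229, 177 and 72.6 CPM in wild type. B cell markers summed to 136 and 76.8 CPM in knockout and 24.6 to 66.3 CPM in wild type. Neutrophil markers ran from 1.56 to 158 CPM within knockout, with Ly6g at 0, and T and NK cell markers were under 1 CPM in every library. Their part in the RNA differences was not tested.

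The host genes with the smallest p among those higher in knockout, none past the adjusted threshold, included Batf, Gramd1a and Ryr2. Batf, an AP-1 family transcription factor gene, had normalised 55.0 and 33.0 CPM in knockout and 7.25, 6.69 and 9.21 CPM in wild type (log2 2.51 ± 0.32 SE, edgeR adjusted p = 0.148). Gramd1a, a sterol transport gene, had 480.0 and 301 CPM against 107, 118 and 101 CPM. No overlap between genotypes was a condition for naming these genes. Ryr2, a calcium release channel gene, had 4.40 and 1.98 CPM in knockout and 0.0167 to 0.205 CPM in wild type, and the others were Arhgap27 (log2 2.26) and the exportin gene Xpo4 (log2 0.97).

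Among hosts lower in knockout the smallest p belonged to Mamdc2, which encodes a proteoglycan, with 0.122 and 0.152 CPM in knockout and 50.1, 21.2 and 15.8 CPM in wild type (log2 -7.66 ± 0.83 SE, edgeR adjusted p = 0.138). Epas1, the gene of the hypoxia-inducible factor HIF-2 alpha, had 0.183 and 0.343 CPM against 12.5, 4.89 and 24.3 CPM (log2 -5.67, edgeR adjusted p = 0.170). Both were low in each knockout library. Nek6, a mitotic kinase gene, had 13.1 and 16.7 CPM against 49.8 to 110.1 CPM. Ldlrad4, an inhibitor of TGF-beta signalling, had 0.611 and 1.33 CPM against 7.99 to 10.4 CPM, and Otulinl 46.1 and 68.0 CPM against 137 to 181 CPM.

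RNA of the most transcribed hosts was looked at apart. Of the 25 host genes above percentile 99, none was called, 1 was higher and 5 were lower with an unadjusted p below 0.05 (5.95% and 7.86% of all genes were), and their median log2 was -0.38. Ctsb RNA was 3069 and 4592 CPM in knockout and 17859, 6889 and 9024 CPM in wild type (log2 -1.70, edgeR adjusted p = 0.389), and Ctsd was 3278 and 4042 against 20278, 6784 and 12874 CPM (edgeR adjusted p = 0.338). Tmsb4x was 6737 and 6617 CPM in knockout and 1896, 4247 and 2361 CPM in wild type (log2 1.20, edgeR adjusted p = 0.335). The genotypes did not overlap in Ctsb, Ctsd and Tmsb4x, which was also so for 269 of the 616 hosts (43.7%) and for 36.2% of all genes tested.

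Among hosts of the osteoclast list RNA varied within each genotype. Ctsk was 3.99 and 49.9 CPM in knockout and 2.73, 38.8 and 24.8 CPM in wild type (log2 0.31 ± 1.25 SE, edgeR adjusted p = 0.935). Acp5 was 20.4 and 85.4 CPM against 18.8, 56.5 and 22.7 CPM (edgeR adjusted p = 0.698). For both genes the genotypes overlap, and replicate 2 was the higher knockout library and the highest of all 5. Over the list, 17 of 19 genes were tested and none was called, and 2 higher and 4 lower genes had an unadjusted p below 0.05, where 5.95% and 7.86% of all genes did. Of the TET and DNA methylation list 19 of 21 were tested, with 0 called and, by the same unadjusted p, 0 higher and 1 lower. Tet3 RNA (276 and 187 CPM against 175, 218 and 61.9 CPM) overlapped between genotypes.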

How the data were processed

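The authors deposited 2 kinds of counts, per gene for RNA and per listed peak for 5hmC, and peak names show calls on merged libraries of each genotype. Per the submitters' processing notes the build was GRCm38 and the tools included HTSeq, MACS2, BWA, STAR, Trim Galore and CASAVA 1.4. The sources used here do not give their roles, the strand setting or the handling of repeated and duplicate reads. Peak numbers reach 12299 (knockout names, 2107 listed) and 56360 (wild-type names, 8001 listed), so many called peaks are not among those listed.

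Groups and replicate numbers come from the labels. The RNA libraries held 16053426 to 56394358 counts. RNA was tested in R 4.3.3 by the quasi-likelihood test of edgeR 4.0.16 (TMM scaling, filterByExpr, two-sided, threshold 0.05 after Benjamini-Hochberg adjustment over all genes) and with DESeq2 1.42.0 and limma-voom (limma 3.58.1) as alternatives. The fit was tested on simulated data. Gene bodies, gene starts and promoter sequences come from RefSeq tables of GRCm38.p6, and a peak belongs to a gene whose body it shares at least 1 base with. A peak in several coding genes takes the one with most RNA per kb. Peaks on chromosome 18 were not analysed here for gene starts and strand. Other alternatives were scalings, filters, pseudocounts and libraries left out in turn. Leaving out 4 peaks or the peaks near chromosome starts was chosen after seeing the data.

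The members and gene lists were chosen with earlier results of these data known. Named peaks are the 10 highest in knockout, the 3 widest, the 3 with most wild-type signal and the 3 shared peaks with least, the genes and chains with most members, peaks in promoter windows and peaks in listed genes. Named RNA genes are the 5 hosts with the smallest p in each direction among those with at least 1 CPM on average and no overlap between genotypes. Peaks with 30 or more summed knockout counts and the 4 peaks that differ between knockout libraries were added after their values were seen. One list of marker genes is not reported here.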

Additional observations from a re-analysis of the deposited data

Results flagged for a closer look

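Outside chromosomes 1 to 19 and X lay 42 knockout-only calls, which are not members and enter above only through totals and scalings. Of these, 2 on chromosome Y are not described here. The others also held summed signal above the wild-type level, which their selection by the knockout call favours. The 35 such peaks on unplaced contigs summed to 1749.9 and 1782 counts per 100000 for knockout, with 246 and 187 for wild type. The 4 peaks on mitochondrial DNA summed to 757 and 873 in knockout and 248 and 82.6 in wild type. The 1 peak on the sequence named KI had 106 and 96.5 in knockout and 0 and 0.456 in wild type, with 49, 41, 0 and 1 counts. On the contigs and on mitochondrial DNA wild-type replicate 1 was above replicate 2, as at the members in the most transcribed genes. What sets these levels was not tested.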

How the results depend on the processing

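No RNA alternative but DESeq2 called a host gene: DESeq2 called 69 of 616 hosts and 1211 of 14851 genes where edgeR called 0 and 2, and all 10 named RNA genes passed its adjusted threshold. The cause was not tested. Leaving out 1 RNA library gave 0 calls each time, 13 to 45 hosts higher and 23 to 93 lower at an unadjusted p under 0.05, and a median log2 of -0.15 to -0.06, with a share of higher hosts above that of all genes except without wild-type replicate 3 (6.92% against 7.69%). Without knockout replicate 1 the counts were 13 higher and 23 lower, and without knockout replicate 2 they were 30 and 28, with fewer samples and the lone library assumed to vary like the wild type. The direction of each named RNA gene held under all 12 alternatives. The replicate block gave 0 called hosts, 39 higher and 77 lower, against 47 and 76, and 0 called genes in all; 6.33% of hosts against 6.40% of all genes were then higher. Deviations of same-numbered libraries correlated at 0.0705 and -0.0936 over 2 pairs, so the numbers were not taken as pairs. For 5hmC the median log2 ratio of 1.60 was 0.91 (log2 of summed levels 0.98 against 1.86, 669 against 1018 peaks with both knockout above both wild-type libraries) per counts in peaks of both genotypes, 1.96 (2.28) with TMM factors, 1.33 (1.73) at 20 or more counts, 1.71 and 1.04 with pseudocounts of 0.5 and 5, and reversed to -0.71 (-0.63, 142 peaks) per counts on contigs and mitochondrial DNA, a denominator that itself differs between genotypes. Leaving out 1 5hmC library gave 1.55 to 1.72, with summed levels from 1.81 to 1.91 and 1034 to 1074 peaks. Of 83 named members 83 had the knockout mean above the wild-type mean, 78 and 49 under the first and last of these scalings. The share in gene bodies, 70.2%, was 78.4% with 2 kb added, 61.7% for coding genes and 73.2% at 20 or more counts. The share near another member, 23.9%, was 6.94% at 10 kb, 71.8% at 1 Mb and 20% at 20 or more counts. Depth limits single peaks: at the median member 6 counts in a knockout library carry an interval from 2.20 to 13.1.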

Other observations

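In windows of 1 Mb the members were unevenly spread. The window from 88 to 89 Mb of chromosome 3, which holds Lmna, had 8 members among 15 listed peaks, and that from 102 to 103 Mb of chromosome 15, which holds Pcbp2, had 8 of 16. On chromosome 17 the window from 13 to 14 Mb, with 2700054A10Rik, had 5 members among 5 listed peaks. Smo, the gene of the Hedgehog signal transducer Smoothened, held 2 members near the middle of its body, with 12 and 15 counts at one and 10 and 10 at the other in knockout, against 2 and 2, and 0 and 3, in wild type. Its RNA was 32.9 CPM in wild-type replicate 3 and at most 1.27 CPM in the other libraries, yet unlike Bgn and Col1a2 both knockout libraries held counts there.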
